A study of Mus musculus with 12 samples.

Results

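The 4 reprogramming factors Oct4 (gene Pou5f1), Sox2, Klf4 and Myc were followed in RNA-seq of mouse cells on the way to pluripotency. They were chosen by gene symbol, and each symbol matched 1 of the 40384 genes in the table. All 4 were among the 17114 genes tested, those with at least 1 FPKM in at least 3 of 12 libraries. FPKM is the number of counted fragments, scaled by the length of the gene and by the total of the library. The groups, with n = 3 libraries each, were iPSC (induced pluripotent stem cells), D4_DUX, D4 and MEF (mouse embryonic fibroblasts). D4_DUX is day 4 of reprogramming with the treatment OE-DUX for 48 h. D4 is day 4 with the overexpression control OE-NC for 48 h. Per the labels, MEF, D4 and D4_DUX libraries are 4F2A cells, and iPSC libraries carry the label iPSC cell. The fibroblasts were taken from male homozygous 4F2A embryos of mid-gestation. A growth text common to all 12 samples names LIF and doxycycline at 2 μg/mL. The sources used here do not say for which groups doxycycline was on, whether the iPSC libraries are 1 clone, or which Dux sequence was overexpressed. The series concerns the effect of Dux, a homeobox transcription factor of the early embryo, on early reprogramming.

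Oct4 and Sox2 are DNA-binding proteins that act as partners at many enhancers of pluripotent cells. Klf4 is a zinc finger factor of epithelia and of pluripotent cells, and Myc is a factor of growth and proliferation that binds DNA with its partner Max. In 4F2A cells doxycycline drives a single message that carries the coding sequences of the 4 factors, joined by 2A peptides, from a cassette placed at the Col1a1 locus. That message holds the coding sequences without the native untranslated regions or promoters, and native messages of the same genes are counted together with it. The gene table gives 1 value per gene, so messages of the cassette and of the native genes cannot be told apart in it.

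In GRCm38, Pou5f1 (ENSMUSG00000024406) lies on the plus strand of chromosome 17 from 35506018 to 35510772, Sox2 (ENSMUSG00000074637) on the plus strand of chromosome 3 from 34650405 to 34652461, Klf4 (ENSMUSG00000003032) on the minus strand of chromosome 4 from 55527143 to 55532466, and Myc (ENSMUSG00000022346) on the plus strand of chromosome 15 from 61985391 to 61990374. Sox2 has 1 exon. The joined exons span 2248 bases for Pou5f1, 2057 for Sox2, 3049 for Klf4 and 2717 for Myc, and the coding sequence makes up 47.1%, 46.7%, 47.6% and 50.2% of that length in the same order. The coding share is therefore alike in the 4 genes.

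The sequence just before the native starts is shown because it is what the cassette lacks. RefSeq windows on GRCm38.p6 matched 3 of the 4 factors, with 2 starts for Pou5f1, and each run below is the 250 bases before a start, 5′ to 3′ on the strand of the gene. Capitals mark matches on either strand to the letters ATGCAAAT (octamer, bound by Oct4), AACAATG (Sox), GGGTGTGG (Klf), GGGCGG (GC box) and CACGTG (E-box, bound by Myc with Max).
Pou5f1, chr17:35505782-35506031, plus strand: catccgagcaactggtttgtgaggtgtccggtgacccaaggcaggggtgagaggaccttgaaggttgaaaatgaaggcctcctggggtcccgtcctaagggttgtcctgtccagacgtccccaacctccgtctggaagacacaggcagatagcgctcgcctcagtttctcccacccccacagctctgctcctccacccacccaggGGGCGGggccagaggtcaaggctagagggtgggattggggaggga
Pou5f1, start inside the gene, chr17:35508557-35508806, plus strand: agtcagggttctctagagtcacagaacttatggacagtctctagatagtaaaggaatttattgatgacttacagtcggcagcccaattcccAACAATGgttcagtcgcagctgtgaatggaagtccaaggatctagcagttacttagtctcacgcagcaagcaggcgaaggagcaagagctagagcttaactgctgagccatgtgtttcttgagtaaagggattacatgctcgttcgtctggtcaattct
Sox2, chr3:34649745-34649994, plus strand: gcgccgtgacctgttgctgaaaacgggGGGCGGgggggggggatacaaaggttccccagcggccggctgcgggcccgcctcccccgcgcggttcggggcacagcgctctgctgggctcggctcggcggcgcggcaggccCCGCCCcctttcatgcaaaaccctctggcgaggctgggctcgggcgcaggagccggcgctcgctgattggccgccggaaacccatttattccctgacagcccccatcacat
Klf4, chr4:55532476-55532725, minus strand: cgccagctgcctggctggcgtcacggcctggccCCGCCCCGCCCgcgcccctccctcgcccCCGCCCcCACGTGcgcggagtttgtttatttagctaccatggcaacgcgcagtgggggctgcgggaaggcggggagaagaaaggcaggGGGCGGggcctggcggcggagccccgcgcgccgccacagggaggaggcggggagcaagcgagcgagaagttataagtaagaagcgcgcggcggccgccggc
The Klf4 window held 4 GC boxes, of which 2 overlap by 1 base, and 1 E-box 182 bases before the start that touches none of them. The Sox2 window held 2 GC boxes and the outer Pou5f1 window held 1. The inner Pou5f1 window held 1 Sox match. Of 22822 promoter windows of the same length, 42.4% held a GC box, 6.79% an E-box, 2.54% a Sox match, 3.42% a Klf match and 1.42% an octamer. A composite of the Sox and octamer letters was found in 0 of these windows. The outer Pou5f1, the Sox2 and the Klf4 windows were 62.0%, 72.0% and 74.0% GC, against a median of 55.6% over all windows, and the inner Pou5f1 window was 45.6% GC.

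The libraries held 22530105 to 28133177 counted fragments, and 14287 to 15834 genes reached 1 FPKM. Within a group, libraries had a Pearson r of 0.9936 to 0.9966 across genes on log2(FPKM + 1), and 0 of 66 pairs of libraries were identical. The labels do not say whether replicates were separate cultures, so p-values measure only the spread between these libraries. The 8 pluripotent cell markers were at a summed level of 1300 to 1450 FPKM in iPSC and 0.181 to 0.44 FPKM in MEF. The MEF libraries held fibroblast markers, at a summed level of 4820 to 4900 FPKM, and also macrophage markers, at 1630 to 1680 FPKM. No label names a batch.

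Pou5f1 was not detected in the fibroblasts, present at day 4 and highest in the iPSC libraries. It had 201.5, 206.3 and 222.2 FPKM in iPSC, 73.6, 71.7 and 71.8 in D4_DUX, 50.9, 45.9 and 57.9 in D4, and 0 in each of the 3 MEF libraries. The 4 groups did not overlap, and D4_DUX was the tightest of the expressing groups. Since MEF was at 0, the folds over MEF are lower bounds, set by a floor of 3 fragments per library, or 0.0474 to 0.0592 FPKM. Pou5f1 was at least 3404-fold higher in iPSC, at least 1211-fold higher in D4_DUX and at least 776-fold higher in D4 than in MEF. Between expressing groups, it was 4.07-fold higher in iPSC than in D4 (log2 fold change 2.01, SE 0.07, adjusted p = 8.12e-11, limma) and 1.40-fold higher in D4_DUX than in D4 (0.49, SE 0.07, adjusted p = 0.00027). In bulk libraries, fewer cells of a type and less RNA per cell cannot be told apart.

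Sox2, the partner of Oct4, followed the same order of groups. It had 130.7, 126.2 and 137.1 FPKM in iPSC, 98.4, 90.4 and 96.5 in D4_DUX, 69.2, 59.3 and 73.8 in D4, and 0.280, 0.642 and 0.423 in MEF. The 4 groups did not overlap, and the MEF values correspond to 13 to 31 counted fragments, above the floor. The step between day 4 and iPSC was smaller than for Pou5f1. Sox2 was 1.95-fold higher in iPSC than in D4 (log2 fold change 0.96, SE 0.09, adjusted p = 1.24e-06, limma) and 1.38-fold higher in iPSC than in D4_DUX (0.46, SE 0.09, adjusted p = 0.000608). Scaling by the median ratio between libraries lowered the difference from D4_DUX to 0.30 (adjusted p = 0.0118). Sox2 was 1.41-fold higher in D4_DUX than in D4 (0.49, SE 0.09, adjusted p = 0.00185), a call that was lost with a pseudocount of 0.1 in place of 1 (0.50, adjusted p = 0.0557). Against MEF, it was 150.4-fold higher in D4.

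Klf4 had another order: its day 4 levels exceeded those of the iPSC libraries. It had 49.4, 54.4 and 62.6 FPKM in iPSC, 130.8, 122.8 and 127.8 in D4_DUX, 98.2, 95.4 and 100.3 in D4, and 8.32, 10.4 and 9.45 in MEF. No groups overlapped, and the fibroblasts already held a moderate level, above 70.4% of the tested genes. Klf4 was 10.4-fold higher in D4 than in MEF (log2 fold change 3.25, SE 0.08, adjusted p = 4.63e-11, limma). It was lower in iPSC than in D4, with a ratio of 0.566 (−0.82, SE 0.08, adjusted p = 2.32e-06). In D4_DUX it was 1.30-fold higher than in D4 (0.37, SE 0.08, adjusted p = 0.0056).

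Of the 4 factors, Myc had the lowest log2 fold change in iPSC against day 4. It had 20.5, 22.1 and 22.1 FPKM in iPSC, 136.9, 128.7 and 129.4 in D4_DUX, 103.3, 108.1 and 107.3 in D4, and 12.8, 16.5 and 12.6 in MEF. The groups did not overlap. Myc was 7.60-fold higher in D4 than in MEF (log2 fold change 2.85, SE 0.08, adjusted p = 9.58e-11, limma). Its level in iPSC was 0.203 of that in D4 (−2.25, SE 0.08, adjusted p = 1.46e-10), which placed it 280 from the lowest log2 fold change of 17114 genes. In iPSC against MEF it was 1.54-fold higher (0.60, SE 0.08, adjusted p = 2.43e-05). The median of all tested genes was also above 0 in that comparison, at 0.21, and median-ratio scaling moved it to 0.03. Under that scaling Myc had a log2 fold change of 0.37 (adjusted p = 0.0015).

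**Figure D1:**
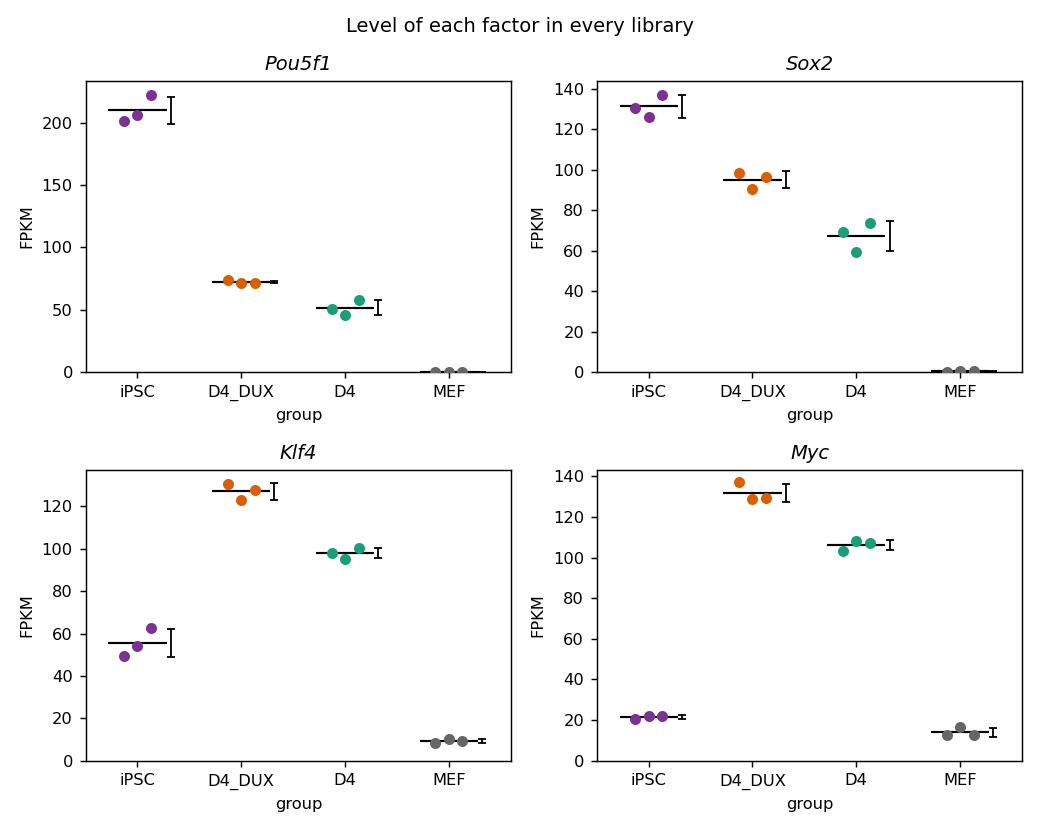
FPKM of Pou5f1, Sox2, Klf4 and Myc in each of the 12 libraries. Points are libraries, lines are group means, and bars at the right of each group are SD (n = 3). Pou5f1 and Sox2 were highest in iPSC, and Klf4 and Myc were highest in D4_DUX.

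The question that D4_DUX against D4 addresses is what Dux changes at day 4. All 4 factors were higher in D4_DUX, by 1.24-fold for Myc to 1.41-fold for Sox2. In each case the lowest D4_DUX library lay above the highest D4 library. How many of all tested genes separate in this way was not counted, so the separation is a description only. The Myc difference was 0.31 on the log2 scale (SE 0.08, adjusted p = 0.0124, limma). In this comparison 20.1% of the tested genes were called higher and 15.4% lower, at an adjusted p under 0.05. Of the tested genes, 96.7% had a lower log2 fold change than Pou5f1, 96.8% than Sox2, 93.9% than Klf4 and 91.3% than Myc. The median over all tested genes was 0.02. The annotated Dux gene, Duxf3, stayed at or below 1.75 fragments in every library, under the floor of 3, so the libraries labelled D4_DUX do not show the label's gene above the floor. Of 12 macrophage markers, 12 were lower in D4_DUX than in D4, with a summed level of 45.9 to 46.9 FPKM in D4_DUX and 184 to 221 FPKM in D4. The 8 fibroblast markers summed to 2130 to 2210 FPKM in D4_DUX and 2810 to 2910 FPKM in D4, with 4 of 8 lower and 0 higher. The 4 neural markers summed to 53.2 to 57.1 FPKM in D4_DUX and 34.3 to 36.8 FPKM in D4. Only 2 of the 4 were tested, and those 2 were higher. Sox1, also among the 4, was listed at 0 in every D4_DUX library and had a mean of 0.00278 FPKM in D4. The part of these shifts in the factor levels was not tested.

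Of the 6 ratios among the 4 factors, 4 overlapped between D4_DUX and D4. The log2 ratio of Sox2 to Pou5f1 was 0.39 ± 0.05 in D4_DUX and 0.39 ± 0.05 in D4 (SD, n = 3 each), a difference of 0.006 (exact two-sided permutation p = 1). Myc to Klf4 was 0.05 ± 0.03 in D4_DUX and 0.12 ± 0.06 in D4, and Myc to Sox2 was 0.47 ± 0.04 in D4_DUX and 0.66 ± 0.18 in D4. For these last ratios the groups did not overlap, and the exact permutation p was 0.1, the smallest that 3 against 3 libraries allow. The remaining 3 ratios overlapped between the groups, with differences of −0.12 for Klf4 to Pou5f1, −0.18 for Myc to Pou5f1 and −0.12 for Klf4 to Sox2. The adjusted exact p over the 6 ratios was 0.3 or more for each. With 3 libraries a group, no ratio could have passed 0.05.

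D4 against MEF asks what 4 days of reprogramming changed, and D4_DUX against MEF asks the same under the Dux label. Both use the same MEF libraries. All 4 factors were higher in D4 than in MEF, where 34.2% of the tested genes were called higher and 27.6% lower, and all 4 were higher in D4_DUX than in MEF, where 39.0% were. By log2 fold change, Pou5f1 (5.71) and Sox2 (5.56) ranked 9 and 10 of 17114 genes in D4 against MEF, Klf4 (3.25) ranked 64 and Myc (2.85) ranked 92. Against MEF, D4_DUX gave 6.20, 6.06, 3.63 and 3.16 for the same genes. Of the 8 pluripotent cell markers, 0 were called in D4 against MEF by limma and 0 had an unadjusted p under 0.05. By voom on recovered fragments, 2 of the 8 were higher. All 8 reached 1 FPKM in iPSC libraries alone, so log2(FPKM + 1) left little room for a call at day 4. Their summed level was 0.418 to 0.525 FPKM in D4 and 0.181 to 0.44 FPKM in MEF. The macrophage markers fell to 184 to 221 FPKM in D4, against 1630 to 1680 FPKM in MEF, with 12 of 12 lower. The fibroblast markers summed to 2810 to 2910 FPKM in D4 and 4820 to 4900 FPKM in MEF, with 4 of 8 higher and 4 lower. Col1a1 alone was at 1249.8 FPKM in D4 and 3047 FPKM in MEF. The neural markers summed to 34.3 to 36.8 FPKM in D4 and 22.0 to 22.5 FPKM in MEF. Only 2 of the 4 were tested, and those 2 were higher. Sox1, also among the 4, was listed at 0 in every MEF library. The 4 endothelial markers summed to 14.0 to 14.5 FPKM in D4 and 0.631 to 0.704 FPKM in MEF. Of these, 2 were tested, with 1 higher and 0 lower. The part of these shifts in the factor levels was not tested.

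Between iPSC and the day 4 groups the factors split. Pou5f1 and Sox2 were higher in iPSC than in D4, where 48.5% of the tested genes were called higher, and Klf4 and Myc were lower, where 33.9% were called lower. Against D4_DUX the log2 fold changes of iPSC were 1.52 for Pou5f1, 0.46 for Sox2, −1.19 for Klf4 and −2.56 for Myc, all called, with 48.4% of the tested genes called higher and 34.1% lower. The median of all tested genes in iPSC against D4 was 0.16, and 0.01 under median-ratio scaling, which changed no call of a factor. All 6 ratios among the factors separated iPSC from D4 without overlap. The widest was Myc to Pou5f1, a log2 ratio of −3.28 ± 0.06 in iPSC and 1.05 ± 0.17 in D4 (SD, n = 3 each, exact two-sided permutation p = 0.1, the smallest possible). Against MEF, iPSC had all 4 factors higher, where 51.0% of the tested genes were called higher, with log2 fold changes of 7.72 for Pou5f1, 6.52 for Sox2, 2.44 for Klf4 and 0.60 for Myc. Fibroblast markers summed to 641 to 834 FPKM in iPSC, with 8 of 8 lower than in D4, and macrophage markers to 134 to 176 FPKM, with 9 of 12 higher than in D4_DUX, and 3 higher and 8 lower than in D4. The part of these markers in the factor differences was not tested.

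**Figure D2:**
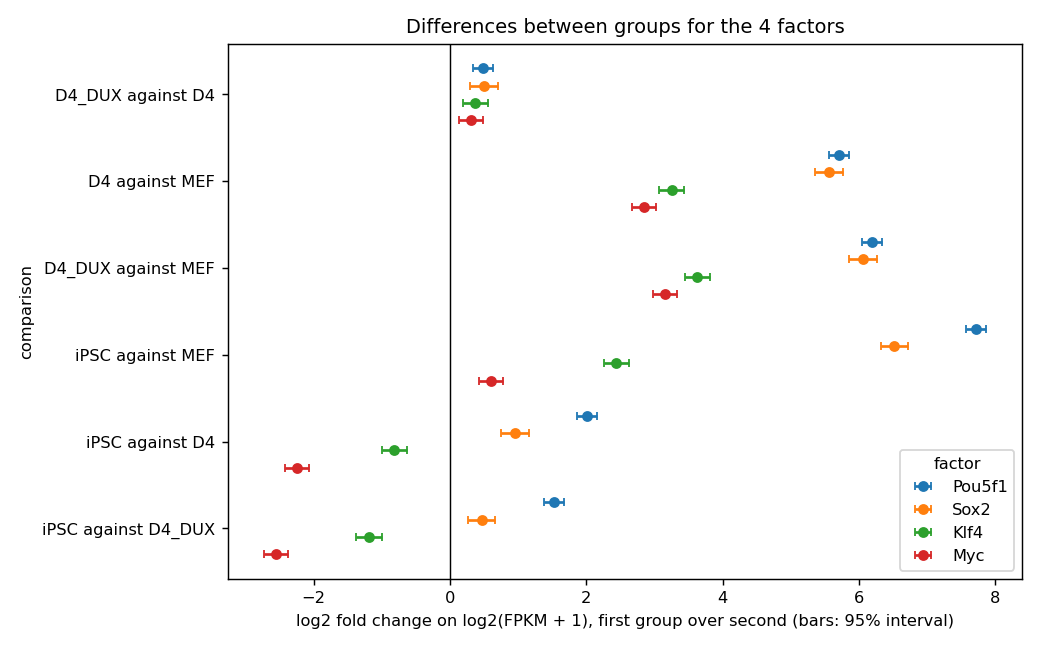
Log2 fold changes of the 4 factors in 6 comparisons, on log2(FPKM + 1), with 95% intervals of the limma fit. In iPSC against D4, Pou5f1 lies at 2.01 and Sox2 at 0.96, and Klf4 lies at −0.82 and Myc at −2.25. Comparisons that name the same group share its libraries.

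The summed level of the 4 genes and its makeup are given by group. Together they held 0.134% ± 0.007 of the FPKM total in iPSC, 0.138% ± 0.005 in D4_DUX, 0.104% ± 0.007 in D4 and 0.00769% ± 0.00109 in MEF (SD, n = 3 each). The share was 1.33 times as large in D4_DUX as in D4 (exact two-sided permutation p = 0.1, the smallest possible), and iPSC and D4_DUX overlapped (exact p = 0.4). As a share of counted fragments, iPSC and D4_DUX did not overlap, at 0.0928% to 0.103% in iPSC and 0.107% to 0.114% in D4_DUX (exact permutation p = 0.1). Pou5f1 made up 50.2% ± 0.2 of the summed FPKM of the 4 in iPSC, 16.98% ± 0.32 in D4_DUX and 15.9% ± 1.1 in D4. Myc made up 5.16% ± 0.22 in iPSC, 30.9% ± 0.4 in D4_DUX and 32.9% ± 1.8 in D4. In MEF the sum was nearly all Myc, 58.6% ± 2.1, and Klf4, 39.6% ± 2.2.

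**Figure D3:**
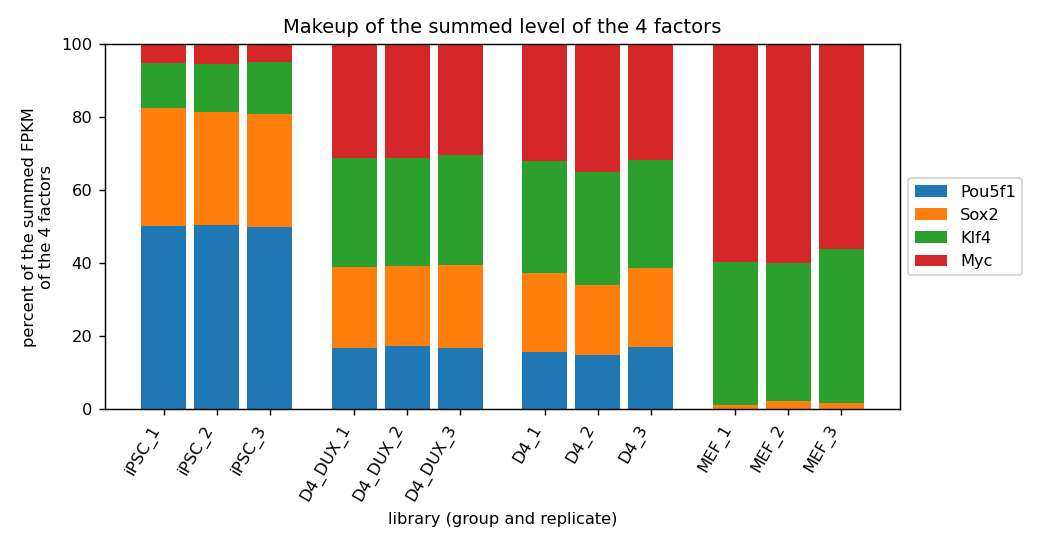
Percent of the summed FPKM of the 4 factors that each factor held, by library. Pou5f1 holds 50.2% on average in the iPSC libraries, and 16.98% in D4_DUX and 15.9% in D4.

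On FPKM taken over the coding length in place of the exon length, a scale that allows for a message without untranslated regions, the 4 factors were not level at day 4. In D4_DUX, Pou5f1 had 154 ± 2 FPKM, Sox2 204 ± 9, Klf4 267 ± 8 and Myc 262 ± 9 (SD, n = 3). In D4, Pou5f1 had 109.5 ± 12.7 FPKM, Sox2 145 ± 16, Klf4 206 ± 5 and Myc 211 ± 5. Klf4 and Myc overlapped in both groups, and both lay above Sox2, which lay above Pou5f1. Fragments of native untranslated regions are included in these values. In iPSC the order was turned round, with 446 ± 23 for Pou5f1, 281 ± 12 for Sox2, 116 ± 14 for Klf4 and 42.9 ± 1.8 for Myc.

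Pou5f1 shares its position with another counted gene. Gm19553 (ENSMUSG00000093516), a predicted gene on the opposite strand of chromosome 17 from 35509077 to 35510551, has 494 exonic bases, of which 317 lie in exons of Pou5f1 and 288 in its coding sequence. It was the only other gene in the annotation found to share a stretch of at least 100 bases at 95% identity or more with any of the 4 factors. Gm19553 had 2988 to 3869 fragments in iPSC, 1122 to 1312 in D4_DUX, 719.5 to 930.9 in D4 and 0 in each MEF library. In the libraries that held Pou5f1 these were 27.4 to 30.0% of the number counted for Pou5f1. The library kit keeps strand, but the sources used here do not say whether counting used it, so reads of Pou5f1 and of Gm19553 cannot be told apart. With the fragments of Gm19553 added, Pou5f1 was at 199 ± 4 FPKM over the coding length in D4_DUX and 141 ± 17 in D4, within 1 SD of the Sox2 mean in each group, and at 574 ± 33 in iPSC. Pou5f1 stayed called in all 6 comparisons with them added.

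**Figure D4:**
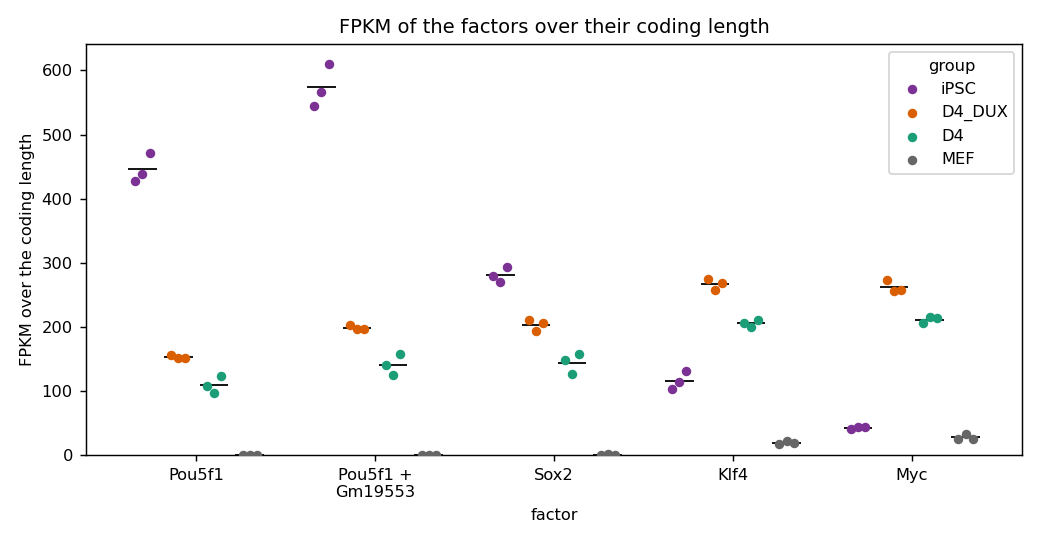
FPKM over the coding length for the 4 factors, and for Pou5f1 with the fragments of its antisense neighbour Gm19553 added. Points are libraries and lines are group means. With Gm19553 added, Pou5f1 lies at 199 in D4_DUX and 141 in D4, beside Sox2 at 204 and 145.

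The genes around the native factors are described as well, since the cassette does not carry them. Whether their levels report on the native factor genes was not tested. Of 29 genes within 100 kb of the 4 factors, 13 were tested. Sox2ot, a noncoding gene in whose intron Sox2 lies, had 385.5 to 460.0 fragments in iPSC, at most 1.25 in D4_DUX, at most 1 in D4 and 3 to 5.75 in MEF. Sox2 and Sox2ot share 0 exonic bases. The Sox2 neighbour Gm3143, at 1.49 to 1.95 FPKM in iPSC, and the Klf4 neighbour Gm12510, at 2.99 to 3.55 FPKM in iPSC, were listed at 0 in all 9 other libraries. Gm27611, which lies 717 bases past Sox2, had 1.75 to 3.13 FPKM in iPSC and 0 in every D4_DUX and D4 library, from at most 8.17 fragments. These 4 neighbours passed the filter on low values through the iPSC libraries alone, so that they were highest there is fixed by the filter.

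The neighbours of Pou5f1 and Myc differed among themselves. Gm19553, described above, was called in the same direction as Pou5f1 in all 6 comparisons. Tcf19, a cell-cycle related gene 1962 bases past Pou5f1, was at 8.33 FPKM in iPSC, 9.11 in D4_DUX, 8.88 in D4 and 16.8 in MEF, lower in D4 than in MEF (log2 fold change −0.85, adjusted p = 5.74e-07, limma). Cdsn, which encodes corneodesmosin of the epidermis, and the nearby 2300002M23Rik were higher in D4_DUX than in D4, by 0.66 and 0.71 on the log2 scale (adjusted p = 0.000209 and 0.000277). Cdsn was at 0.592 FPKM in iPSC, 2.18 in D4_DUX, 1.01 in D4 and 0.888 in MEF. The gene 2300002M23Rik was listed at 0 in MEF and was at 0.855 FPKM in D4 (adjusted p = 1.04e-05) and 2.03 FPKM in D4_DUX, and unlike Pou5f1 it was lower in iPSC, at 0.0222 FPKM, than in D4 (adjusted p = 6.32e-06). Pvt1, the noncoding gene past Myc, was at 2.998 FPKM in iPSC, 2.12 in D4_DUX, 2.04 in D4 and 1.30 in MEF, so it was higher in D4 than in MEF (0.41, adjusted p = 0.000769), as Myc was, and higher in iPSC than in D4 (0.40, adjusted p = 0.000532), where Myc was lower. Pvt1 in D4_DUX against D4 had a log2 fold change of 0.04 (adjusted p = 0.765). At the site of the cassette, Col1a1, the main fibroblast collagen gene, was at 184 FPKM in iPSC, 866 in D4_DUX, 1249.8 in D4 and 3047 in MEF. Col1a1 was lower in D4_DUX than in D4 (−0.53, adjusted p = 0.00341, limma). Gt(ROSA)26Sor, the other site of a transgene in the strain, was at 4.42 FPKM in iPSC, 1.615 in D4_DUX, 1.103 in D4 and 2.987 in MEF. It went the other way, higher in D4_DUX than in D4 (0.315, adjusted p = 0.0171, limma).

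The genes most like each factor over the 12 libraries were ranked by Pearson r on log2(FPKM + 1). They were sought among tested genes, without those that have a predicted-gene name. Gm19553, described above, was therefore not a candidate. For Pou5f1 they included Igsf9b, Gsta4, Lin7c and Atad3a, with r of 0.994 to 0.997. For Sox2 they were Gsta4, Ezr, Pigq, Ugt1a7c and Tcf7, with r of 0.992 to 0.996. For Klf4 they were Perp, Ano3, Prkci, Dapk1 and Tgm1, with r of 0.995 to 0.998, and for Myc they were Arhgef3, Itgb4, Cpped1, Plekha6 and Stk10, with r of 0.997 to 0.998. Perp, most like Klf4, was at 23.2 ± 4.8 FPKM in iPSC, 84.5 ± 6.7 in D4_DUX, 66.3 ± 1.0 in D4 and 0.807 ± 0.097 in MEF (SD, n = 3 each). Itgb4, among those most like Myc, was at 1.94 ± 0.21 FPKM in iPSC, 102 ± 3 in D4_DUX, 72.6 ± 3.7 in D4 and 0.374 ± 0.030 in MEF. Among the factors, Pou5f1 and Sox2 had r = 0.990, Sox2 and Klf4 0.918, Klf4 and Myc 0.875, Pou5f1 and Klf4 0.854, Sox2 and Myc 0.616, and Pou5f1 and Myc 0.4996. All these values describe 4 group levels more than 12 separate points, and the libraries share group and depth.

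The relatives of Oct4 and Sox2 are given beside the shares over all tested genes, which were 48.5% higher and 33.9% lower in iPSC against D4, 34.2% and 27.6% in D4 against MEF, and 20.1% and 15.4% in D4_DUX against D4. In the POU family, which shares the octamer-binding domain of Oct4, 4 other genes were tested. In D4_DUX against D4, 0 of them were higher and 1 lower, and in D4 against MEF 1 was higher and 2 lower. In iPSC against D4, 3 were higher and 1 lower, with Pou2f1 (Oct1) at 8.32 FPKM in iPSC and 1.64 FPKM in D4 (log2 fold change 1.82, adjusted p = 5.32e-11, limma). Of 9 tested SOX family genes, 7 were higher and 0 lower in iPSC than in D4. Sox7, Sox15 and Sox17, and Pou2f3 of the POU family, reached 1 FPKM in iPSC libraries alone, so their calls are fixed in part by the filter. Sox15 was at 8.54 FPKM in iPSC and 0.0518 FPKM in D4, and Sox17, a factor of endoderm, was at 1.45 FPKM in iPSC and listed at 0 in D4. In D4 against MEF, 1 SOX gene was higher and 6 lower, among them Sox9, a factor of cartilage, at 0.926 FPKM in D4 and 3.50 FPKM in MEF (−1.23, adjusted p = 1.84e-08). In D4_DUX against D4, 3 were higher and 1 lower.

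In the KLF and SP family, Klf2 and Klf5, known to act beside Klf4 in mouse pluripotent cells, went the opposite way to Klf4 in D4 against MEF and in iPSC against D4, and the same way in iPSC against MEF. Klf2 was at 59.1 FPKM in iPSC, 0.315 in D4_DUX, 0.560 in D4 and 4.95 in MEF. Klf5 was at 69.9 FPKM in iPSC, 0.341 in D4_DUX, 0.723 in D4 and 1.77 in MEF. Both were lower in D4 than in MEF (log2 fold changes −1.93 and −0.69, adjusted p = 3.63e-09 and 6.91e-07, limma), where Klf4 was higher, and higher in iPSC than in D4 (5.27 and 5.36), where Klf4 was lower. In iPSC against MEF all 3 were higher, by 3.34 for Klf2, 4.68 for Klf5 and 2.44 for Klf4. A sum over Klf2, Klf4 and Klf5, chosen after their values were seen, was 184.5 ± 6.9 FPKM in iPSC and 99.2 ± 2.5 FPKM in D4, and Klf4 made up 30.0% of it in iPSC and 98.7% in D4. Over all 18 tested relatives, 12 were higher and 3 lower in iPSC than in D4, beside 48.5% and 33.9% of all tested genes. In D4 against MEF, 5 were higher and 6 lower, near the shares of 34.2% and 27.6% over all tested genes. In D4_DUX against D4, 4 were higher and 9 lower, where 20.1% and 15.4% of all tested genes were, with a median log2 fold change of −0.20 beside 0.02 for all tested genes. Klf7 and Klf9 were among those lower, at 2.85 and 15.9 FPKM in D4_DUX, against 4.67 and 20.3 FPKM in D4 (adjusted p = 1.37e-05 and 0.000163).

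In the iPSC libraries Mycn exceeded Myc in FPKM. Mycn, a paralog of Myc with like DNA binding that reached 1 FPKM in iPSC libraries alone, was at 53.5 FPKM in iPSC, 0.449 in D4_DUX, 0.413 in D4 and 0.262 in MEF, and was higher in iPSC than in D4 (log2 fold change 5.27, adjusted p = 1.35e-13, limma). The sum of Myc, Mycn and Mycl, chosen after their values were seen, was 77.9 ± 3.9 FPKM in iPSC, 132.5 ± 4.6 in D4_DUX and 107.2 ± 2.6 in D4, with Myc at 27.7% of it in iPSC and 99.1% in D4. Of 11 tested genes of the MYC and MAX network, 4 were higher and 1 lower in D4_DUX than in D4, where 20.1% of all tested genes were higher. Max, the partner that Myc needs to bind DNA, was at 29.8 FPKM in D4_DUX and 22.0 FPKM in D4 (0.42, adjusted p = 0.000196). Mxd4, which competes with Myc for Max, was at 19.99 FPKM in D4_DUX and 14.4 FPKM in D4 (0.44, adjusted p = 2.11e-05), and at 2.39 FPKM in iPSC (−2.19 against D4). In D4 against MEF the network had 5 higher and 4 lower, and in iPSC against D4 4 higher and 4 lower, beside 34.2% and 27.6%, and 48.5% and 33.9%, over all tested genes.

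Genes listed as activated by Oct4 and Sox2 were higher in iPSC than in D4, and few of them were called higher at day 4 than in the fibroblasts. The symbol Tcf3 of the list matched ENSMUSG00000020167 on chromosome 10, the gene of E2A and not Tcf7l1, which was once also called Tcf3. Tcf3 is therefore not read as a known target, though it stays in the counts. Of 20 listed genes, all tested, 20 were higher in iPSC than in D4, where 48.5% of all tested genes were. The median log2 fold change was 5.20 beside 0.16 for all tested genes. Of the 20, 14 reached 1 FPKM in iPSC libraries alone and so had to be higher there, so this count and median are a description. In iPSC against MEF, where 51.0% of all tested genes were higher, 18 were higher and 1 lower. The lower gene was Tcf3, at 26.2 FPKM in iPSC and 29.9 FPKM in MEF, and Spp1 was not called (−0.04, adjusted p = 0.61). Over all tested genes, 34.2% were higher and 27.6% lower in D4 against MEF. There, 3 of the 20 were higher and 5 lower, with a median of 0.02 beside 0.03 for all. The 14 genes of iPSC alone were under 1 FPKM in every D4 and MEF library, so on log2(FPKM + 1) they could move little. With a pseudocount of 0.1, 7 of the 20 were higher, and 6 were with FPKM rescaled to TPM. Fgf4, a growth factor gene with an enhancer bound by Oct4 and Sox2, was one that rose: it had 2281 to 2790 fragments in iPSC, 65.5 to 88.2 in D4_DUX, 48.5 to 86.0 in D4 and 0 in each MEF library (D4 against MEF, adjusted p = 1.99e-06, limma). Fgf4 at day 4 was 0.863 FPKM in D4, against 31.6 FPKM in iPSC. Lefty1, an inhibitor of Nodal signalling, was at 5.96 FPKM in D4 and 1.95 FPKM in MEF (1.24, adjusted p = 1.57e-08). By contrast, Esrrb, Sall4 and Utf1, of which Utf1 was picked after its values were seen, had at most 6 fragments in any D4_DUX or D4 library and 3649 or more in every iPSC library. Nanog, also picked after its values were seen, was at 99.2 to 126.9 FPKM in iPSC, 0.121 to 0.218 in D4_DUX, 0.225 to 0.327 in D4 and 0.173 to 0.256 in MEF, so the D4 and MEF libraries overlapped.

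**Figure D5:**
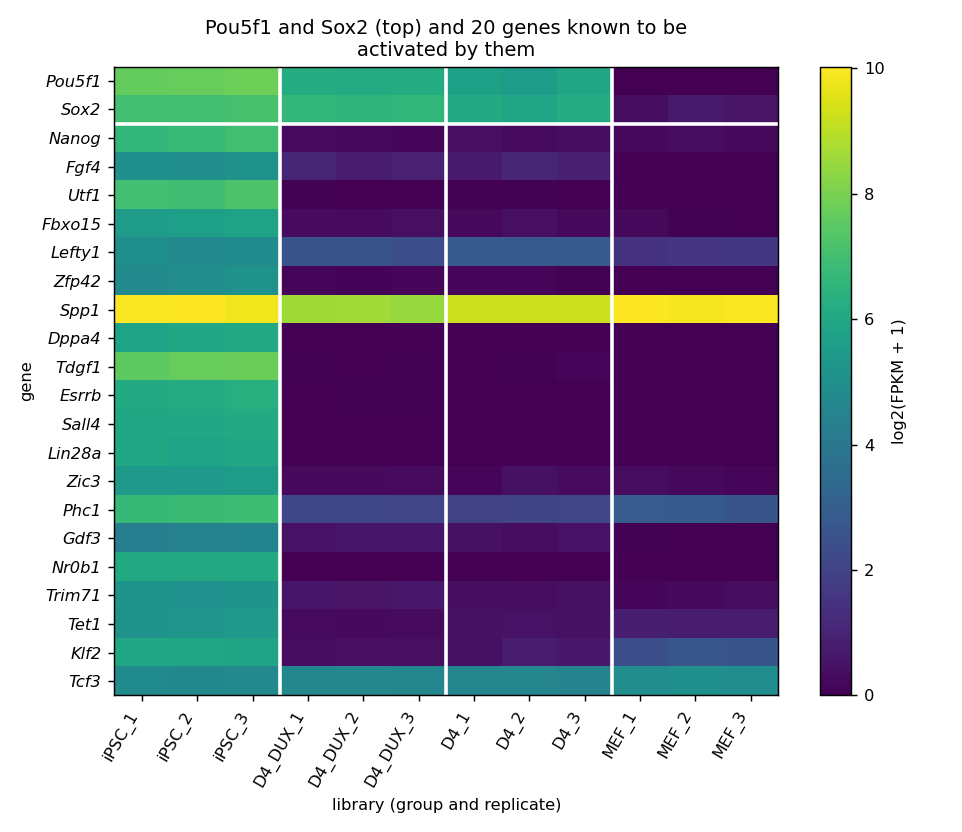
Log2(FPKM + 1) of Pou5f1, Sox2 and 20 genes listed as activated by them, in each of the 12 libraries. Tcf3 of the list is E2A and is not read as a known target. All 20 were higher in iPSC than in D4, and most of them stayed near 0 in D4_DUX, D4 and MEF.

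In D4_DUX against D4, where Pou5f1 and Sox2 were higher, 1 of the 20 genes was higher and 3 were lower, with a median log2 fold change of 0.00. Of the 20, 14 were under 1 FPKM in every D4_DUX and D4 library, so on log2(FPKM + 1) they could move little. The counts and the median therefore do not show how these genes respond. Over all tested genes 20.1% were higher and 15.4% lower, so the count of lower genes is near that of all genes. Spp1, which encodes osteopontin and is also made by macrophages and fibroblasts, was at 380.4 FPKM in D4_DUX and 603.6 FPKM in D4 (−0.67, adjusted p = 1.80e-05, limma). Lefty1 was at 4.84 FPKM in D4_DUX and 5.96 FPKM in D4 (−0.26, adjusted p = 0.0107). Trim71, an RNA-binding protein gene, was at 0.50 FPKM in D4_DUX and 0.311 FPKM in D4 (0.20, adjusted p = 0.0266).

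Known Myc target genes, for ribosome biogenesis, nucleotide synthesis and replication, were mostly higher at each step, also where Myc was lower. Of 50, all tested, 32 were higher and 1 lower in D4_DUX than in D4, where 20.1% of all tested genes were higher, with a median log2 fold change of 0.19 beside 0.02 for all tested genes. Bop1 and Nop56, factors of ribosome assembly, were at 23.7 and 22.7 FPKM in D4_DUX and at 18.9 and 17.4 FPKM in D4 (adjusted p = 0.000107 and 8.94e-05, limma). In D4 against MEF, 37 were higher and 6 lower, with a median of 0.31 beside 0.03, where 34.2% of all tested genes were higher. In iPSC against D4, where Myc was lower, 48 were higher and 0 lower, with a median of 1.34 beside 0.16, where 48.5% of all tested genes were higher. Odc1, the first enzyme of polyamine synthesis, was at 422.4 FPKM in iPSC and 35.5 FPKM in D4 (3.54, adjusted p = 4.41e-14), and Mcm5, a subunit of the replicative helicase, was at 88.2 FPKM in iPSC and 11.2 FPKM in D4 (2.87, adjusted p = 1.49e-13).

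Epithelial genes linked to Klf4 were higher in D4_DUX than in D4 in 7 of 11 tested cases and lower in 0, or in 1 at an unadjusted p under 0.05, where 20.1% of all tested genes were higher. Krt8, an epithelial keratin, was at 10.3 FPKM in D4_DUX and 2.57 FPKM in D4 (log2 fold change 1.66, adjusted p = 5.36e-07, limma), and Krt19 was at 9.66 FPKM in D4_DUX and 3.53 FPKM in D4 (1.23, adjusted p = 1.06e-06). Krt18, another keratin of the list, went the other way, at 1.72 FPKM in D4_DUX and 2.19 FPKM in D4, and was not called. The count of higher genes was 4 when D4_DUX replicate 2, D4_DUX replicate 3 or D4 replicate 2 was left out. In D4 against MEF, 6 were higher and 0 lower, beside 34.2% and 27.6% of all tested genes, among them Dsp, the desmosomal plaque protein desmoplakin, at 4.41 FPKM in D4 and 0.0829 FPKM in MEF (2.32, adjusted p = 1.23e-10), and Cdkn1a, an inhibitor of the cell cycle, at 196.9 FPKM in D4 and 68.8 FPKM in MEF (1.50, adjusted p = 2.20e-11). In iPSC against D4, 7 were higher and 4 lower, beside 48.5% and 33.9%, and 4 of the 11 reached 1 FPKM in iPSC libraries alone, Epcam among them. Epcam, a surface adhesion protein, was at 53.0 FPKM in iPSC and 0.114 FPKM in D4 (5.60, adjusted p = 3.43e-15).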

How the data were processed

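Polyadenylated RNA of 12 samples was made into stranded libraries and read in pairs, per the labels' protocols. The authors deposited FPKM values per gene. The build was mm10 per the submitters' processing notes, and no source used here names the aligner, the counter or the annotation. Of 40384 gene IDs, 99.4% matched GENCODE M21 (GRCm38). FPKM times the M21 exon length gave steps of a constant per library, and so depth and fragments. Within 0.0001 fragment, 98.6 to 98.9% of low values lay on a grid of 0.005 fragment and 38.6 to 40.2% were whole within 0.001, so no count model was used as the main test.

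Values were analysed as log2(FPKM + 1), and low values give smaller fold changes on it. Genes with at least 1 FPKM in at least 3 libraries entered a limma 3.58.1 fit of 4 group means in R 4.3.3, with Benjamini-Hochberg adjustment over all tested genes and calls at 0.05. The fit was tested on simulated data. Ratios and shares had exact two-sided permutation tests. Other pseudocounts, filters and scalings, a block and each library left out were tried. The 4 factors and all lists were chosen with earlier results of these data known. The genes named are the 4 factors, their loci, Dux, the 5 genes most like each factor (1 of them is not reported here) and up to 4 per list and comparison with the smallest adjusted p. Replicate numbers did not pair libraries.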

Additional observations from a re-analysis of the deposited data

How the results depend on the processing

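Over the 24 differences of the 4 factors, 581 of 582 alternative values kept their direction and side of the threshold. Of these, 288 left a library out. Where that library was of a group not compared, the fold change could not move, and only the adjusted p could. The exception was Sox2 in D4_DUX against D4 with a pseudocount of 0.1, at 0.50 (adjusted p = 0.0557). Its adjusted p ranged between 1.16e-05 and 0.0557 over all alternatives. The log2 ratio of Sox2 to Pou5f1 in D4_DUX against D4 changed sign when libraries were left out, with a range of −0.012 to 0.036. Counts of called genes followed the filter, which sets how many genes are tested. With at least 5 FPKM, 3087 genes were lower in D4 than in MEF and 2894 lower in D4_DUX than in MEF, and 5570, 5183 and 5132 were higher in iPSC than in MEF, D4 and D4_DUX. With no filter, 13594, 13205 and 13091 were higher in iPSC than in those groups. With an iPSC library left out, 6 of the Oct4 and Sox2 list were higher in iPSC than in D4, since genes of iPSC alone no longer reached 3 libraries. The lists of 5 most similar genes shared 0 genes with those by Spearman's rho.

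With the replicate number as a block, log2 fold changes of D4_DUX against D4 were 0.49 for Pou5f1 (adjusted p = 0.00048) and 0.31 for Myc (adjusted p = 0.0152), and no call of a factor changed. Deviations of libraries with the same number correlated at −0.146 to 0.07, over 0.1 in 0 of 18 pairs. The alternatives added after seeing the data were voom on recovered fragments, the fragments of Gm19553 added to Pou5f1, the share of counted fragments, and the coding length with Gm19553. A share per coding length was not run, since it has no total. Counts of 0 genes in a direction within the POU, SOX, Oct4 and Sox2, and Myc target lists, by limma, were also 0 at an unadjusted p under 0.05 and 0 by voom.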
